A study of Mus musculus with 20 samples.

Results

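The genes described here are the mouse chemokines and their receptors, followed through the middle colon of healthy mice and of mice with chemically induced colitis under 2 treatments. Members were the array probe sets whose single annotated symbol was Ccl, Cxcl, Cx3cl, Xcl, Ccr, Cxcr, Cx3cr, Xcr or Ackr followed by a number, with Ccrl2 included. This rule found 57 genes, each with 1 probe set, among the 21423 gene symbols with values on the array, and they were 34 ligands and 23 receptors. The 2 probe sets that carried Ccl27b or Ccl19 together with other symbols were not members. A test was made of 51 members, 31 ligands and 20 receptors, whose log2 level exceeded 5.30 on at least 4 of the 20 arrays. The 6 dimmer members (Ccl26, Cxcl3, Cxcl15, Ccr1l1, Ccr3 and Ccr8) have values but no test. Of these, Ccl26 lay between 4.65 and 5.21 over the 20 arrays and Cxcl15 between 4.00 and 4.47.

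All mice were female C57BL/6JOlaHsd of about 11 weeks, with 4 mice in each of 5 groups and 1 array per mouse. Colitis was induced with 3% dextran sulphate sodium (DSS), a polymer that damages the colonic epithelium, in the drinking water for 5 days. Cyclosporine colitis mice (animal numbers 4, 7, 9 and 10) took DSS and cyclosporine A, a calcineurin inhibitor that suppresses T cell activation, orally at 25 mg/kg daily from day 1 to day 15. Probiotic colitis mice (3, 5, 7 and 8) took DSS and the bacterial strains L930BB and IM386 by gavage before and during DSS. Untreated colitis mice (5, 6, 7 and 10) took DSS and, as the arm without treatment, saline. Probiotic healthy mice (4, 5, 6 and 7) took the strains without DSS, and untreated healthy mice (2, 4, 6 and 7) took saline without DSS. Cyclosporine was suspended in methocel and the probiotic in saline, so the vehicle of cyclosporine was not that of the untreated mice, and no healthy group took cyclosporine. Mice were caged by 5 and the cage of each mouse is not given, so cage and group cannot be told apart. Below, the 4 values of a group follow the order of the animal numbers given here.

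Chemokines are small secreted proteins that guide leukocytes along concentration gradients through receptors coupled to inhibitory G proteins. CXC ligands with an ELR motif attract neutrophils, the interferon-induced CXC ligands attract activated T cells and NK cells, and many CC ligands attract monocytes, eosinophils or lymphocytes. Homeostatic ligands place B cells, T cells and dendritic cells in lymphoid tissue, a few epithelial ligands serve the gut mucosa, and atypical receptors bind chemokines without G protein signalling and lower their free level. In the injured colon, epithelium, stroma and macrophages are known sources of the inflammatory members.

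Promoter sequences are shown for 8 members because transcription of many inflammatory chemokines is known to be driven by NF-kB and by interferon signalling. They are the 250 bases before the gene start in the RefSeq table of build GRCm38.p6, 5′ to 3′ on the gene's strand, in lower case with motif matches in capitals. Cxcl1 (chr5:90890995-90891244, plus strand), Cxcl2 (chr5:90903649-90903898, plus strand), Cxcl3 (chr5:90785851-90786100, plus strand) and Cxcl10 (chr5:92348890-92349139, minus strand) were picked after their matches were seen. Ackr4 (chr9:104126644-104126893, minus strand), Cxcl13 (chr5:95956689-95956938, plus strand), Ccl8 (chr11:82114935-82115184, plus strand) and Cxcr6 (chr9:123806227-123806476, plus strand) are the members with the smallest p in untreated colitis against untreated healthy mice.
Cxcl1: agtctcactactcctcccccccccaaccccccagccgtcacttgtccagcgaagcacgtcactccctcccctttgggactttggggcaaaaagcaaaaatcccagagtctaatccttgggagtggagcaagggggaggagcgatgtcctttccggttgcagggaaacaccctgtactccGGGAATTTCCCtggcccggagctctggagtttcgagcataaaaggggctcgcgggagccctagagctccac
Cxcl2: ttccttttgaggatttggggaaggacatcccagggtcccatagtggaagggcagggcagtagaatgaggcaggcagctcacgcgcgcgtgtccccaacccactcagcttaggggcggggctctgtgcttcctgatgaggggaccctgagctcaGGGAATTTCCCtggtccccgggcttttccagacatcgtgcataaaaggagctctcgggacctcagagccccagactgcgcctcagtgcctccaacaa
Cxcl3: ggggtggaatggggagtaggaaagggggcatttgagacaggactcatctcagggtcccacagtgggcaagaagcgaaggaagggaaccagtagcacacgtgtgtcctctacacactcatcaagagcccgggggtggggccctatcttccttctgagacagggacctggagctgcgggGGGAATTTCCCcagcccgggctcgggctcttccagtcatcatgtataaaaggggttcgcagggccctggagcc
Cxcl10: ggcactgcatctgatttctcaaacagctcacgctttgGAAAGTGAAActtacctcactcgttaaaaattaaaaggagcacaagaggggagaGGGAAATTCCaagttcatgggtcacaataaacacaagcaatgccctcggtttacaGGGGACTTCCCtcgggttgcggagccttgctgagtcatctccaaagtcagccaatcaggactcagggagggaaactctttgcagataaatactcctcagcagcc
Ackr4: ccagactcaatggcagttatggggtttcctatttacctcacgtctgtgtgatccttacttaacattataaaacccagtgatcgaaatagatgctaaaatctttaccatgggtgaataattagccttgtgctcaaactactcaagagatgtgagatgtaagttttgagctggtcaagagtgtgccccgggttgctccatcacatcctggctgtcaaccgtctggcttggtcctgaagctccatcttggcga
Cxcl13: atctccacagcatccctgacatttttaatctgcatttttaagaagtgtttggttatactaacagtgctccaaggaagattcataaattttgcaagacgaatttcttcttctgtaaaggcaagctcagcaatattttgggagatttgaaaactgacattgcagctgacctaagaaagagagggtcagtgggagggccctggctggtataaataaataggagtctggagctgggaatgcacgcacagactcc
Ccl8: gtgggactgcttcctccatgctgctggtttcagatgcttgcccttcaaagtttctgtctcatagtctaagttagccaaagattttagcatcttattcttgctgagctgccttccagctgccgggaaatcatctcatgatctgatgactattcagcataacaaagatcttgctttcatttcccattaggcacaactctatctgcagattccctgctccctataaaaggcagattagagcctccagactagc
Cxcr6: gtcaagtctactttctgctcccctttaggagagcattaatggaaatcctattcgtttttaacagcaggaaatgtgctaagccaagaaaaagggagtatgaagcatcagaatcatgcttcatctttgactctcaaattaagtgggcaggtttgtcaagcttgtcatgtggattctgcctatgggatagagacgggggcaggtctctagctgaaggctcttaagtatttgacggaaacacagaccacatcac
Motifs were searched on both strands: the NF-kB consensus, the core of the interferon-stimulated response element, and TTCNNNGAA (the core of the interferon gamma activated sequence). Cxcl1, Cxcl2 and Cxcl3, neighbours that encode neutrophil-attracting ligands, each hold GGGAATTTCC, starting at -71, -97 and -73 from the gene start, and each match overlaps one on the opposite strand. The Cxcl10 window holds the response element core as GAAAGTGAAA at -213 and NF-kB matches at -159, -104 and -103, the last of which overlap. No match lies in the windows of Ackr4, Cxcl13, Ccl8 and Cxcr6, which says only that these letters are not in those windows.

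A promoter was found for 43 of the 57 members, 49 promoters in all. The NF-kB consensus lay in 12 of them (24.5%), against 7.25% of all 32851 promoters of the same length in the table. The interferon-stimulated response element core lay in 2 member promoters (4.08%, against 2.98% of all) and TTCNNNGAA in 4 (8.16%, against 7.02% of all). Members with any match numbered 15 and those with none 28, and a match is a description of letters, not of binding.

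**Figure D1:**
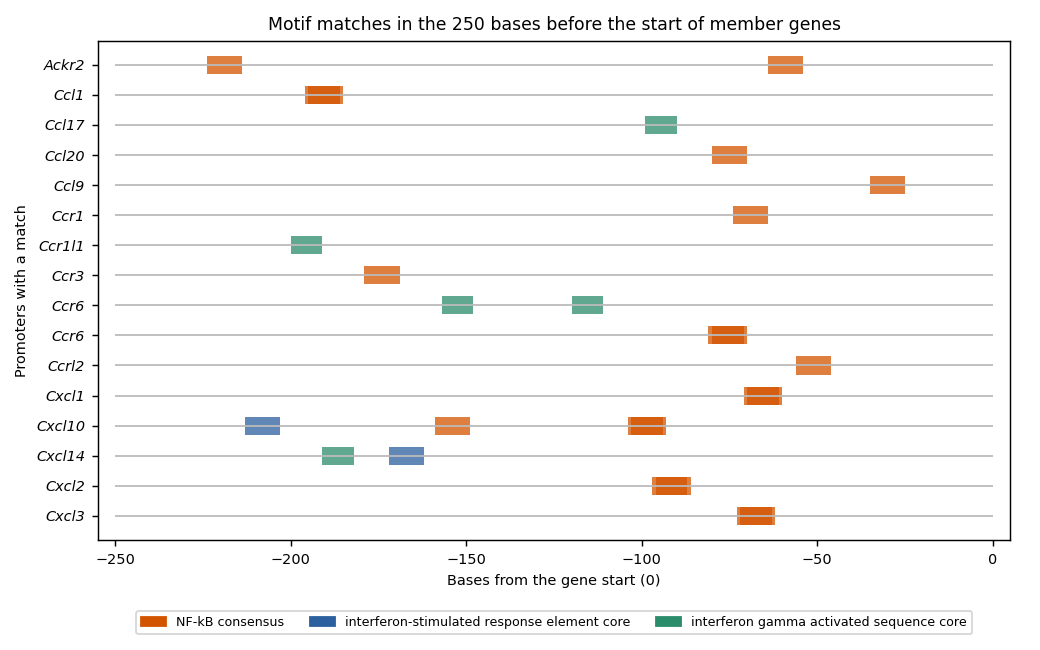
Position of motif matches in the 250 bases before the start of the member genes that hold any (x axis, bases from the gene start at 0; 1 line per promoter, Ccr6 having 2 starts). Boxes mark the NF-kB consensus and the cores of the interferon-stimulated response element and of the interferon gamma activated sequence, darker where matches of 1 motif overlap; Cxcl1, Cxcl2 and Cxcl3 hold their NF-kB match at -71, -97 and -73.

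Levels are RMA-normalised log2 values, so a difference of 1 is a doubling, and levels of different genes cannot be compared. Array medians lay between 6.22 and 6.29, and the correlation between arrays over tested genes between 0.926 and 0.993. On the leading components, of which the first held 55.9% of the variance, 1 array in each of 3 groups stood apart from the others, namely mouse 8 of probiotic colitis, mouse 6 of untreated colitis and mouse 2 of untreated healthy. All 13 listed colon epithelium markers were measured, with a mean level of 10.97 to 11.11 in cyclosporine colitis, 10.54 to 10.83 in probiotic colitis, 10.69 to 10.93 in untreated colitis, 11.12 to 11.20 in probiotic healthy and 11.21 to 11.33 in untreated healthy mice. Changes are differences of group mean log2 levels with the standard error of the limma fit and a p-value adjusted over 16739 genes by Benjamini-Hochberg.

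In untreated colitis, against untreated healthy mice, 24 of the 51 tested members rose and 2 fell. This comparison asks what DSS colitis does to the chemokine system. The shares are 47.1% and 3.92% of the tested members, where 11.7% of all tested genes rose and 14.4% fell. The median change was 0.43 over the tested members and -0.03 over all genes. Of the ligands 14 rose and 1 fell, and of the receptors 10 rose and 1 fell. Tissue RNA was measured, so more cells of a type and more RNA per cell, or fewer and less, cannot be told apart in this and every comparison. The count that rose was 15 without mouse 7 of untreated colitis, and likewise without mouse 6 or mouse 7 of untreated healthy. The count that fell was 1 without any of untreated healthy mice 2, 4, 6 and 7 or untreated colitis mice 5, 6 and 7. Without the 3 arrays that stand apart, 29 members rose and 1 fell. Over all tested genes 1957 rose in the fit of all arrays and 1619 without mouse 7 of untreated colitis. Without mouse 6 or mouse 7 of untreated healthy 1646 and 1563 genes rose, and without the 3 arrays 2060.

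**Figure D2:**
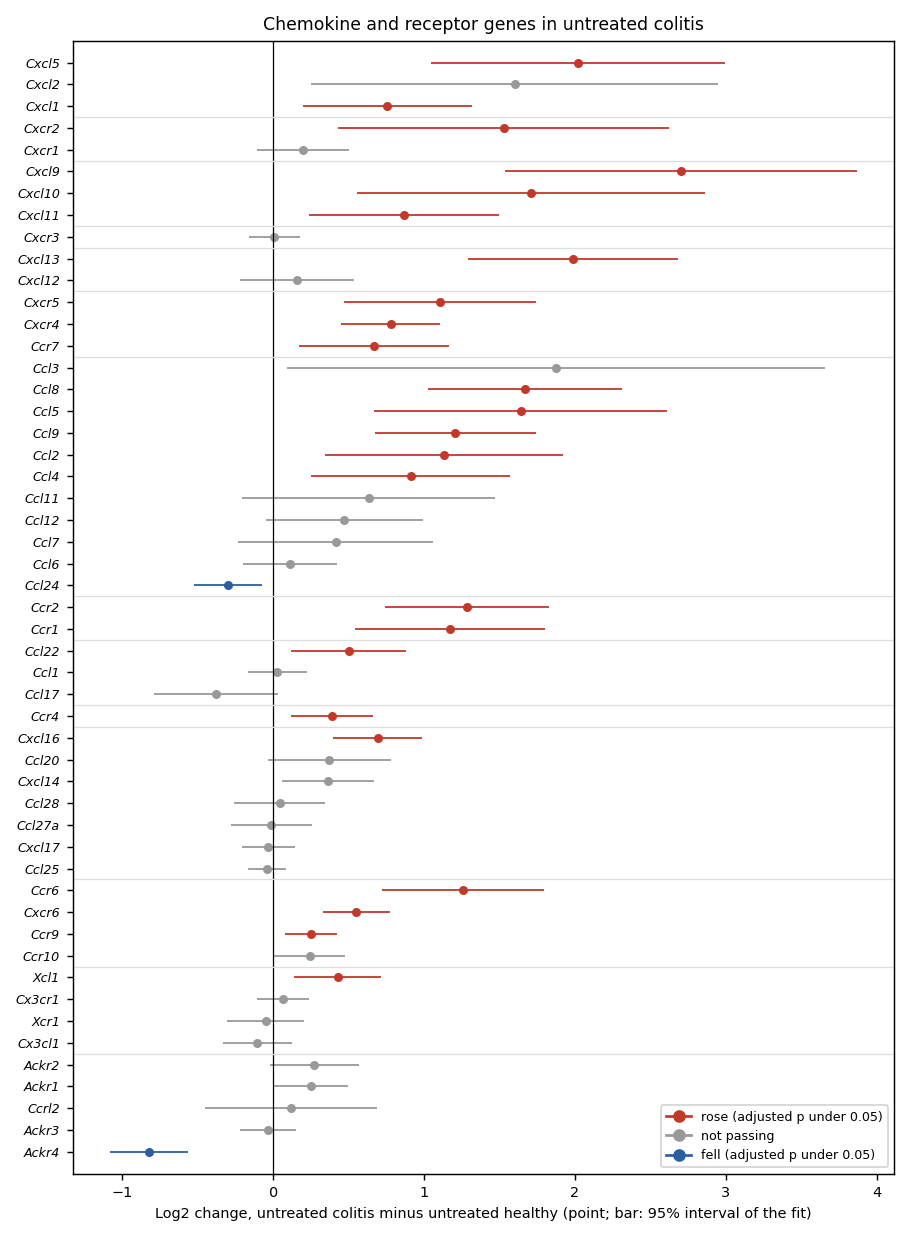
Log2 change of the 51 tested members in untreated colitis minus untreated healthy mice (point) with the 95% interval of the fit (bar), in blocks by role, coloured by whether the adjusted p was under 0.05. Cxcl9 (2.70) lies farthest to the right and Ackr4 (-0.82) farthest to the left.

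Among the ELR CXC ligands that recruit neutrophils, Cxcl5 and Cxcl1 rose of 3 tested. Cxcl5, an epithelial ligand of Cxcr2, was at 8.65, 7.71, 9.35 and 8.75 in untreated colitis mice, against 7.17, 6.68, 6.25 and 6.27 in untreated healthy mice, and rose by 2.02 ± 0.47 (adjusted p = 0.00351), or 4.06-fold. Every untreated colitis mouse lay above every untreated healthy mouse, mouse 6 being the lowest of the colitis group. Cxcl1, a ligand made by stroma and epithelium, was at 6.48, 6.15, 7.81 and 6.72 in untreated colitis mice, against 6.26, 6.19, 6.06 and 5.63 in untreated healthy mice, and rose by 0.76 ± 0.27 (adjusted p = 0.0433). These groups overlap, since mouse 6 with colitis was within the healthy range and mouse 7 was far above it. Cxcl2, a macrophage product, was at 5.52, 5.33, 9.15 and 6.15 in untreated colitis mice, against 4.75, 5.02, 4.96 and 5.03 in untreated healthy mice, and its change of 1.60 ± 0.64, adjusted p = 0.0748, did not pass. Every untreated healthy value of Cxcl2 was below the log2 level that a member had to exceed to be tested. Cxcl2 passed that level mainly through untreated and probiotic colitis mice, so its change is a description. Untreated colitis and untreated healthy values do not overlap, but mouse 7 with colitis stood well above the others. The dim Cxcl3, their close neighbour and relative, was listed at 4.55, 4.04, 8.84 and 5.03 in untreated colitis mice, against 3.84, 3.34, 4.02 and 3.63 in untreated healthy mice, with the same mouse highest.

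Of the 2 neutrophil CXC receptors, Cxcr2 passed. Cxcr2, the receptor of the ELR ligands, was at 7.64, 6.63, 9.37 and 7.65 in untreated colitis mice, against 6.48, 6.36, 6.43 and 5.91 in untreated healthy mice, and rose by 1.53 ± 0.52 (adjusted p = 0.0377). The groups do not overlap, with mouse 7 highest and mouse 6 lowest in colitis, as for Cxcl5. Cxcr1, its neighbour in the genome, was at 6.00, 6.14, 6.22 and 6.00 in untreated colitis mice, against 5.92, 5.85, 5.97 and 5.83 in untreated healthy mice (0.20 ± 0.15, adjusted p = 0.354). Of 12 tested neutrophil markers 8 rose and 0 fell, their mean level being 6.50 to 9.30 in untreated colitis mice and 5.81 to 5.96 in untreated healthy mice. Their part in the ELR ligand and Cxcr2 results was not tested.

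The 3 interferon-induced CXC ligands rose, and their receptor Cxcr3 did not pass. Cxcl9, induced by interferon gamma, was at 8.87, 7.42, 9.86 and 10.67 in untreated colitis mice, against 6.56, 6.63, 6.38 and 6.45 in untreated healthy mice, and rose by 2.70 ± 0.56 (adjusted p = 0.00151), or 6.51-fold. This was the highest log2 change among the tested members, with mouse 10 highest and mouse 6 lowest but still above each untreated healthy mouse. Cxcl10, whose promoter is printed above, was at 7.60, 6.86, 9.23 and 9.19 in untreated colitis mice, against 6.34, 6.73, 6.65 and 6.32 in untreated healthy mice, and rose by 1.71 ± 0.55 (adjusted p = 0.0274). Mice 7 and 10 stood well above mice 5 and 6, all of them above the healthy mice. Cxcl11 RNA was at 6.13, 5.79, 7.17 and 6.85 in untreated colitis mice, against 5.62, 5.89, 5.51 and 5.46 in untreated healthy mice, and rose by 0.86 ± 0.30 (adjusted p = 0.0400). Mouse 6 with colitis was within the healthy range. The Cxcr3 gene, expressed by activated T cells, was at 6.78, 6.56, 6.64 and 6.53 in untreated colitis mice, against 6.73, 6.70, 6.62 and 6.42 in untreated healthy mice (0.01 ± 0.08, adjusted p = 0.956), and the groups overlap.

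Of the lymphoid members tested, Cxcl13, Cxcr5, Cxcr4 and Ccr7 rose and Cxcl12 did not pass. Cxcl13, the B cell ligand of lymphoid follicles, was at 11.64, 11.04, 12.21 and 11.32 in untreated colitis mice, against 9.97, 9.60, 9.60 and 9.10 in untreated healthy mice, and rose by 1.99 ± 0.33 (adjusted p = 0.000285). Each untreated colitis mouse was more than 1 unit above the highest untreated healthy mouse. Cxcr5, its receptor on B cells and follicular T cells, was at 8.82, 7.49, 7.83 and 7.90 in untreated colitis mice, against 7.21, 6.91, 6.84 and 6.64 in untreated healthy mice, and rose by 1.11 ± 0.30 (adjusted p = 0.0112). Here mouse 5 was highest, and the groups do not overlap. Cxcr4, the widely expressed receptor of Cxcl12, was at 8.62, 7.71, 8.52 and 8.20 in untreated colitis mice, against 7.72, 7.44, 7.43 and 7.35 in untreated healthy mice, and rose by 0.78 ± 0.16 (adjusted p = 0.00126). Mouse 6 with colitis lay just within the healthy range, and the other colitis mice were above it. Cxcl12, the stromal ligand of Cxcr4, was at 9.44, 8.32, 9.51 and 9.07 in untreated colitis mice, against 8.57, 9.06, 9.03 and 9.05 in untreated healthy mice (0.16 ± 0.18, adjusted p = 0.573). Ccr7, which brings T cells and dendritic cells to lymph nodes, was at 8.32, 6.86, 7.46 and 7.31 in untreated colitis mice, against 6.90, 6.71, 6.89 and 6.78 in untreated healthy mice, and rose by 0.67 ± 0.24 (adjusted p = 0.0442). The groups overlap at mouse 6, and mouse 5 was highest, as it was for Cxcr5. Of 11 B and plasma cell markers 9 rose and 0 fell, with mean levels of 7.70 to 9.37 in untreated colitis and 6.82 to 7.48 in untreated healthy mice, and their part in the Cxcl13, Cxcr5 and Ccr7 results was not tested.

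Of the 11 tested inflammatory CC ligands 5 rose and 1 fell. Ccl8, a ligand made by macrophages, was at 7.72, 6.68, 8.46 and 6.71 in untreated colitis mice, against 5.65, 5.54, 5.69 and 6.02 in untreated healthy mice, and rose by 1.67 ± 0.31 (adjusted p = 0.000615). The groups do not overlap, although mice 6 and 10 were more than 1 unit below mice 5 and 7. Ccl9, a myeloid ligand of Ccr1, was at 9.07, 8.95, 9.98 and 8.99 in untreated colitis mice, against 8.32, 7.98, 8.03 and 7.83 in untreated healthy mice, and rose by 1.21 ± 0.26 (adjusted p = 0.00186). The groups do not overlap and mouse 7 stood above 3 close values. Ccl5, a product of T and NK cells, was at 9.52, 7.47, 10.51 and 9.12 in untreated colitis mice, against 7.18, 7.54, 7.63 and 7.71 in untreated healthy mice, and rose by 1.64 ± 0.46 (adjusted p = 0.0136). Mouse 6 with colitis was within the healthy range and the other 3 were above it. Ccl2, the main monocyte ligand of Ccr2, was at 6.98, 6.38, 8.63 and 7.31 in untreated colitis mice, against 6.16, 6.02, 6.29 and 6.30 in untreated healthy mice, and rose by 1.13 ± 0.38 (adjusted p = 0.0322). The lowest colitis mouse, 6, was only just above the healthy mice.

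Ccl4, a ligand of activated macrophages and T cells, was at 6.50, 6.48, 8.53 and 6.64 in untreated colitis mice, against 5.99, 6.08, 5.99 and 6.46 in untreated healthy mice, and rose by 0.91 ± 0.32 (adjusted p = 0.0398). Most of this difference came from mouse 7, the other 3 being near the top of the healthy range. Ccl3, which adjoins Ccl4 in the genome, was at 6.73, 5.74, 11.31 and 7.59 in untreated colitis mice, against 6.07, 5.78, 5.91 and 6.12 in untreated healthy mice, and its change of 1.87 ± 0.85, adjusted p = 0.114, did not pass. Mouse 7 was far above mouse 6, which was the lowest of the 8. Ccl24, an eosinophil ligand, was at 5.14, 4.94, 4.99 and 5.29 in untreated colitis mice, against 5.41, 5.36, 5.31 and 5.46 in untreated healthy mice, and fell by 0.30 ± 0.11 (adjusted p = 0.0484), with all 4 colitis values below the level of 5.30 used as a filter. No overlap was seen between the groups, but the values are close to background. Ccl24 passed the filter mainly through healthy mice, so this change is a description. The other 4 did not pass: Ccl11 was at 7.93, 6.83, 9.87 and 7.87 in untreated colitis mice, against 7.22, 7.52, 7.47 and 7.75 in untreated healthy mice (0.63 ± 0.40, adjusted p = 0.269). The changes of Ccl12, Ccl7 and Ccl6 were 0.47 ± 0.25, 0.41 ± 0.31 and 0.11 ± 0.15.

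Both tested receptors of the inflammatory CC ligands rose. Ccr2, the receptor that brings monocytes out of bone marrow, was at 7.68, 6.90, 8.10 and 7.68 in untreated colitis mice, against 5.95, 6.36, 6.44 and 6.49 in untreated healthy mice, and rose by 1.28 ± 0.26 (adjusted p = 0.00127). There is no overlap, and mouse 6 was the lowest with colitis. Ccr1, a receptor of monocytes and neutrophils, was at 6.81, 6.55, 8.10 and 7.31 in untreated colitis mice, against 5.92, 5.93, 5.99 and 6.25 in untreated healthy mice, and rose by 1.17 ± 0.30 (adjusted p = 0.00743). Again the groups do not overlap, with mouse 7 highest. Of 11 monocyte and macrophage markers 6 rose and 0 fell, with mean levels of 7.84 to 8.96 in untreated colitis and 7.71 to 7.83 in untreated healthy mice. Their part in the Ccr2, Ccr1 and Ccl8 results was not tested. The dim Ccr3, an eosinophil receptor, was between 3.80 and 3.90 in untreated colitis and between 3.69 and 3.85 in untreated healthy mice.

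Of the ligands of Ccr4 and Ccr8, which mark helper and regulatory T cells, Ccl22 rose of 3 tested. Ccl22, made by dendritic cells and macrophages, was at 7.22, 6.25, 6.51 and 6.41 in untreated colitis mice, against 6.00, 6.06, 6.19 and 6.14 in untreated healthy mice, and rose by 0.50 ± 0.18 (adjusted p = 0.0490). Mouse 5 was highest and no colitis mouse was within the healthy range. Ccl17, the other ligand of Ccr4, was at 5.47, 5.30, 5.29 and 5.59 in untreated colitis mice, against 5.71, 5.51, 6.03 and 5.92 in untreated healthy mice (-0.38 ± 0.19, adjusted p = 0.167). Those groups overlap. Ccr4 was at 5.92, 5.36, 5.45 and 5.62 in untreated colitis mice, against 5.14, 5.32, 5.13 and 5.19 in untreated healthy mice, and rose by 0.39 ± 0.13 (adjusted p = 0.0310). The groups stand apart by a narrow margin, 3 of the 4 untreated healthy values are below the filter level of 5.30, and the gene passed that filter mainly through colitis mice, so this change is a description. Ccl1, a ligand of Ccr8, had a change of 0.03 ± 0.09, adjusted p = 0.863. The dim Ccr8 was at 4.83, 4.95, 5.16 and 5.22 in untreated colitis mice, against 5.12, 4.57, 4.73 and 4.72 in untreated healthy mice, and overlaps.

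Among the mucosal members 1 of 7 tested ligands and 3 of 4 tested receptors rose. Ccr6, the receptor of Ccl20 on B cells and helper T cells, was at 8.11, 6.78, 6.81 and 7.13 in untreated colitis mice, against 6.27, 5.85, 5.92 and 5.77 in untreated healthy mice, and rose by 1.26 ± 0.26 (adjusted p = 0.00140). The 2 groups stand apart, with mouse 5 highest, as for Ccr7 and Cxcr5. Ccl20, its epithelial ligand, was at 7.26, 7.92, 7.37 and 7.42 in untreated colitis mice, against 7.35, 7.16, 7.14 and 6.83 in untreated healthy mice (0.37 ± 0.19, adjusted p = 0.173). Here mouse 6, the lowest for many members, was the highest. Cxcl16, a membrane-bound ligand, was at 8.91, 8.72, 9.27 and 8.98 in untreated colitis mice, against 8.18, 8.32, 8.33 and 8.27 in untreated healthy mice, and rose by 0.69 ± 0.14 (adjusted p = 0.00140). Cxcr6, its receptor on resident T cells, was at 5.76, 5.53, 5.69 and 6.05 in untreated colitis mice, against 5.08, 5.16, 5.36 and 5.23 in untreated healthy mice, and rose by 0.55 ± 0.11 (adjusted p = 0.000891). For this ligand and its receptor alike no colitis mouse was within the healthy range, and 3 of the 4 untreated healthy values of Cxcr6 are below the filter level. Ccr9, the homing receptor for small bowel, was at 5.64, 5.52, 5.53 and 5.63 in untreated colitis mice, against 5.42, 5.37, 5.30 and 5.23 in untreated healthy mice, and rose by 0.25 ± 0.08 (adjusted p = 0.0290), a small step without overlap. Of 11 T and NK cell markers 6 rose and 0 fell, with mean levels of 6.25 to 7.54 in untreated colitis and 6.00 to 6.13 in untreated healthy mice, and their part in the Cxcr6 and Ccr9 results was not tested.

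The other epithelial and mucosal ligands did not pass. Ccl28, which attracts plasma cells to the colon, was at 10.58, 11.27, 10.78 and 11.02 in untreated colitis mice, against 10.77, 10.90, 10.88 and 10.93 in untreated healthy mice (0.04 ± 0.14, adjusted p = 0.863). The colitis mice spanned the healthy ones. The changes of Cxcl14, Ccl25, Cxcl17 and Ccl27a were 0.36 ± 0.15, -0.04 ± 0.06, -0.03 ± 0.09 and -0.01 ± 0.13, with adjusted p between 0.0735 for Cxcl14 and 0.965 for Ccl27a. Ccl27a has near-identical copies, which may share its probes. Ccr10, the receptor of Ccl27a and Ccl28, had a change of 0.24 ± 0.11, adjusted p = 0.126.

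Of the XC and CX3C members, Xcl1 rose. Xcl1, a ligand for cross-presenting dendritic cells, was at 6.50, 6.53, 6.18 and 6.29 in untreated colitis mice, against 6.04, 5.63, 5.99 and 6.13 in untreated healthy mice, and rose by 0.43 ± 0.14 (adjusted p = 0.0268). Here too the margin is narrow. Its receptor Xcr1 had a change of -0.05 ± 0.12, adjusted p = 0.807. Cx3cl1, the membrane-bound ligand fractalkine, and Cx3cr1, its receptor on gut macrophages, had changes of -0.10 ± 0.11 and 0.07 ± 0.08.

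Of the 5 atypical receptors and relatives, Ackr4 fell, and it had the smallest p of the tested members. Ackr4, which takes up Ccl19, Ccl21 and Ccl25, was at 4.65, 4.58, 4.82 and 4.60 in untreated colitis mice, against 5.58, 5.38, 5.18 and 5.80 in untreated healthy mice, and fell by 0.82 ± 0.12 (adjusted p = 0.000120). The 4 colitis mice lay close together and below every healthy mouse, and below the filter level of 5.30, near which array values are compressed. Ackr4 passed that filter on 9 arrays, all of healthy or cyclosporine colitis mice, so this change and its p are a description. Ackr1, the endothelial receptor that binds many inflammatory chemokines, had a change of 0.25 ± 0.12, adjusted p = 0.125. Ackr2, a scavenger of inflammatory CC ligands, had a change of 0.27 ± 0.14, adjusted p = 0.169. Ackr3, a scavenger of Cxcl12, and Ccrl2, which presents chemerin, had changes of -0.04 ± 0.09 and 0.12 ± 0.27.

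**Figure D3:**
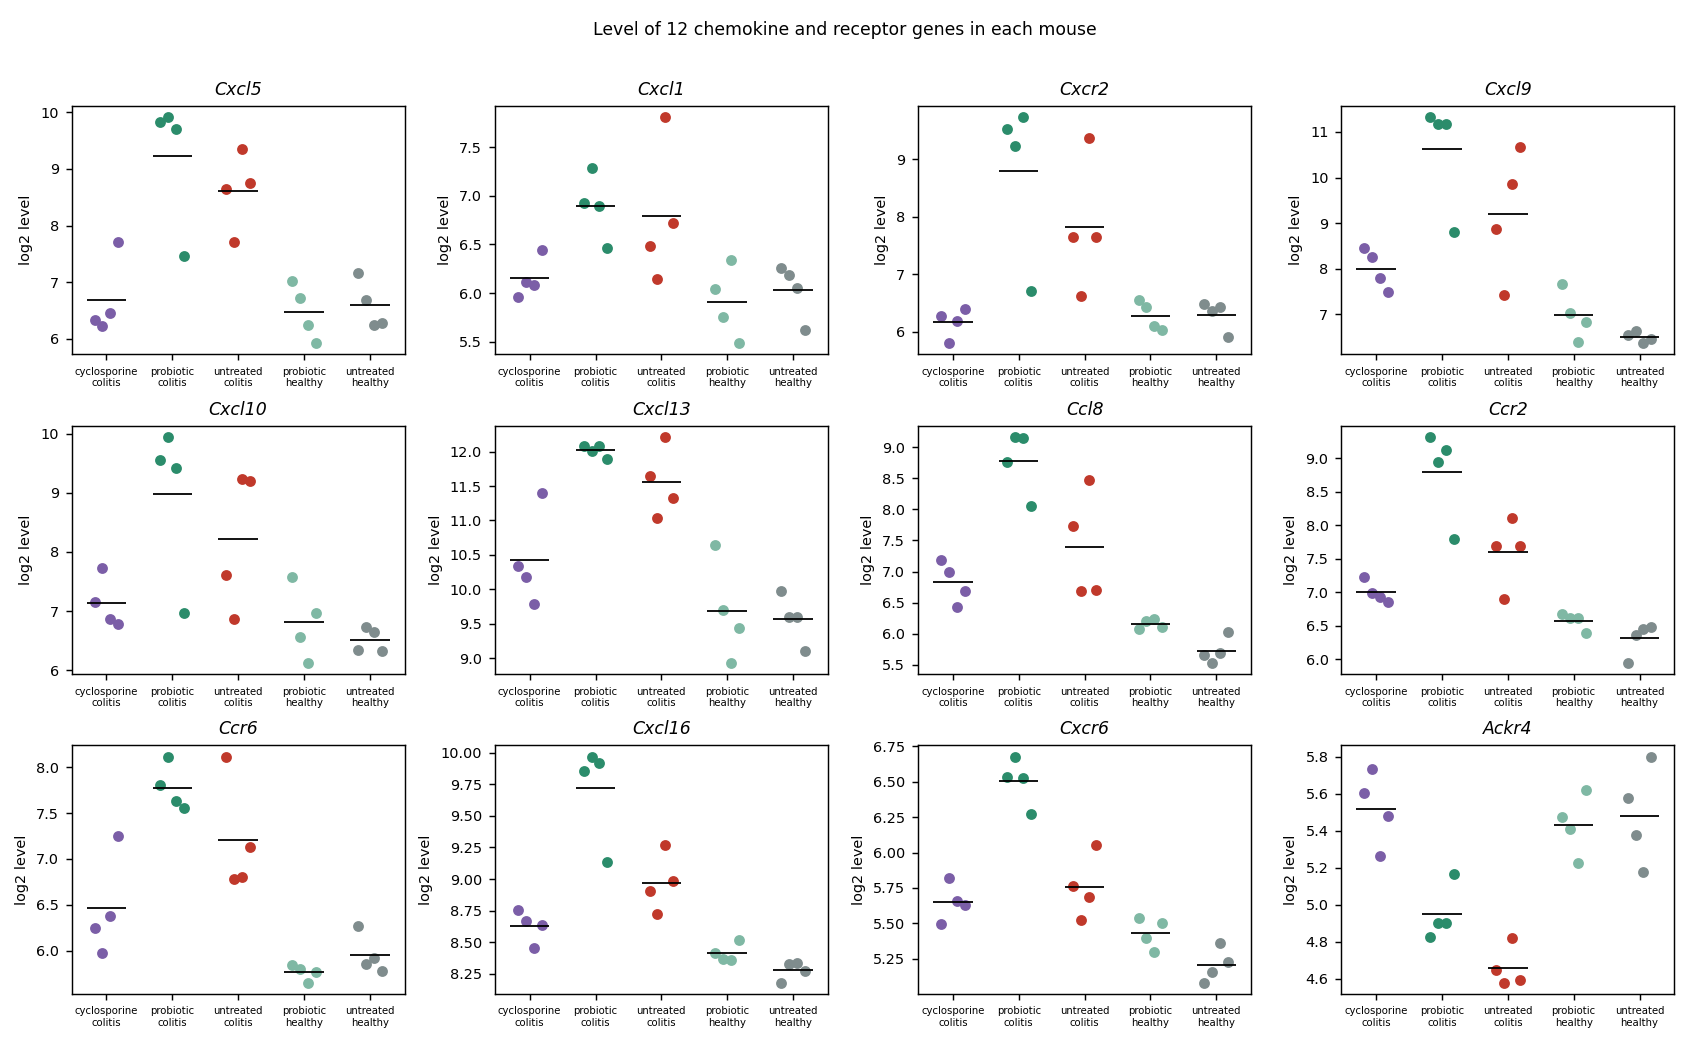
Log2 level (y axis) of 12 members in each mouse (points, from left to right by animal number) of the 5 groups, with the group mean as a bar. Cxcl16 and Cxcr6 are highest in probiotic colitis, Cxcl5 and Cxcr2 are near healthy levels in cyclosporine colitis apart from Cxcl5 in mouse 10, and Ackr4 is lowest in untreated colitis; y axes do not start at 0.

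Within every group the median SD between mice was higher over the tested members than over all genes. The median SD within untreated colitis was 0.372 over the tested members and 0.128 over all genes, within probiotic colitis 0.270 and 0.115, and within cyclosporine colitis 0.206 and 0.130. In probiotic healthy mice it was 0.163 and 0.107, and in untreated healthy mice 0.154 and 0.120. Ccl3 had the widest spread in probiotic colitis and untreated colitis, with an SD of 1.76 and 2.43. Untreated colitis mouse 7 held the highest value of its group for 28 of the 51 tested members, where it was highest for 19.4% of all genes. Untreated colitis mouse 6 held the lowest for 38 members, where it was lowest for 23.8% of all genes. In probiotic colitis, mouse 8 held the lowest value for 38 members (31.6% of all genes) and mouse 7 the highest for 23 (23.5%). Cyclosporine colitis mouse 9 held the lowest for 29 members (29.9% of all genes).

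**Figure D4:**
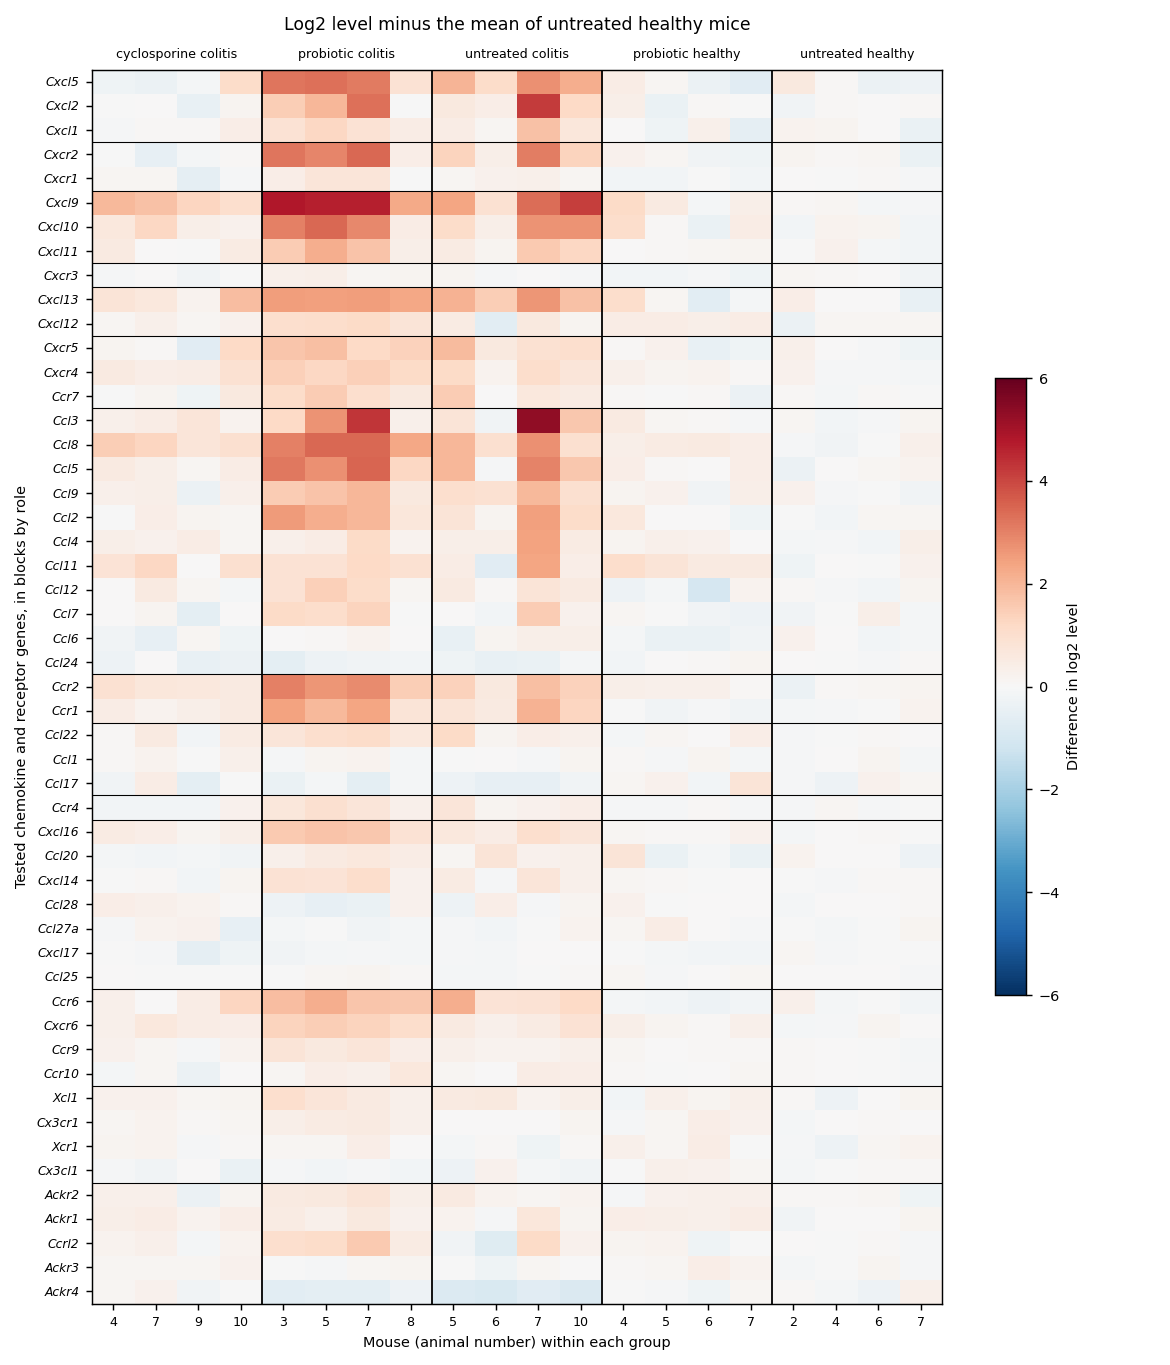
Log2 level of the 51 tested members (rows, in blocks by role) in each of 20 mice (columns, by animal number within group) minus the mean of untreated healthy mice, red above and blue below. Untreated colitis mouse 6 and probiotic colitis mouse 8 are paler than the others of their groups, and the cyclosporine colitis columns are paler than those of the other colitis groups for most members.

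Calls were mixed among chemokine genes that neighbour each other in the RefSeq gene order. The run Ccl5, Ccl9, Ccl6, Ccl3 and Ccl4 on chromosome 11 had 3 risen members of 5 tested. In the run of Ccl2, Ccl7, Ccl11, Ccl12, Ccl8 and Ccl1, on the same chromosome, 2 of 6 rose. On chromosome 9 the receptor run Ccr9, Cxcr6, Xcr1, Ccr1, Ccr1l1, Ccr3 and Ccr2 had 4 risen members of 5 tested. Cxcl9 and Cxcl10, next to each other on chromosome 5, both rose. Differences between neighbours were not tested, and a gene without a call need not have changed less. Ccl3, which did not pass, had a larger change than Ccl4, which rose. The dim Ccr1l1, beside Ccr1, was listed at 3.60 to 4.09 in untreated colitis and 3.56 to 4.05 in untreated healthy mice. It was above the filter level on no array, so its values cannot be set against the rise of Ccr1.

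Other genes of the pathway moved in untreated colitis too. Of 37 receptor signalling genes 20 rose and 1 fell, led by the adaptor Arrb2 (0.87 ± 0.14, adjusted p = 0.000209) and the Rac activator Dock2 (1.45 ± 0.25, adjusted p = 0.000328), while Gnai1, an inhibitory G protein subunit, fell by 0.57 ± 0.12 (adjusted p = 0.00202). Of 8 inducers of chemokine genes 4 rose, namely Tnf, Il1b, Ltb and Il1a, by 1.51 ± 0.24, 3.51 ± 0.71, 1.42 ± 0.32 and 2.56 ± 0.76. Of 12 chemoattractants and receptors with other symbols 5 rose and 0 fell, among them S1pr1, a lymphocyte egress receptor, by 0.82 ± 0.25 (adjusted p = 0.0223). Of 10 proteases that cleave chemokines 5 rose and 1 fell, among them the neutrophil collagenase Mmp8 with a change of 2.27 ± 0.76 (adjusted p = 0.0332) and Dpp4, which trims chemokine ends, with one of -0.26 ± 0.09 (adjusted p = 0.0350).

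In probiotic colitis, against untreated colitis, 7 of the 51 tested members rose and 0 fell, where 2.13% of all tested genes rose and 0.669% fell. This comparison and that of cyclosporine share the untreated colitis mice. The question is what the strains do to the chemokine system of the inflamed colon. The groups did not overlap for 6 tested members higher and 0 lower in probiotic colitis, where 3.63% and 4.28% of all genes did not. The median change was 0.33 over the tested members, 44 of them positive, and -0.02 over all genes. All 7 passed in the fit of 20 arrays, whereas a fit of these 2 groups alone called 0 members and no gene at all. The count that rose was 1 without probiotic colitis mouse 5, 2 without untreated colitis mouse 6 or probiotic colitis mouse 3 or 7, and 16 without probiotic colitis mouse 8, where 1 member fell. Without the 3 arrays that stand apart it was 11. Over all tested genes the count that rose moved too, from 356 in the fit of all arrays. It was 60 without probiotic colitis mouse 5, 72 without untreated colitis mouse 6, and 136 and 91 without probiotic colitis mouse 3 and 7. Without probiotic colitis mouse 8 it was 829, and without the 3 arrays 458. No member passed with a fall in the fit of all arrays. Limma gave 18 members with an unadjusted p under 0.05 in either direction. That count is not set here against the one over all genes, so it is not read as a trait of the members.

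The receptor Cxcr6 was at 6.53, 6.68, 6.52 and 6.27 in probiotic colitis mice, against 5.76, 5.53, 5.69 and 6.05 in untreated colitis mice, and rose by 0.74 ± 0.11 (adjusted p = 0.00268). Values of the groups do not meet. Its ligand Cxcl16 was at 9.86, 9.97, 9.92 and 9.13 in probiotic colitis mice, against 8.91, 8.72, 9.27 and 8.98 in untreated colitis mice, and rose by 0.75 ± 0.14 (adjusted p = 0.0113). Probiotic colitis mouse 8 lay below the highest untreated colitis mouse, and the other 3 lay above it. The monocyte receptor Ccr2 was at 9.32, 8.95, 9.12 and 7.79 in probiotic colitis mice, against 7.68, 6.90, 8.10 and 7.68 in untreated colitis mice, and rose by 1.20 ± 0.26 (adjusted p = 0.0213). Here too mouse 8 overlaps the untreated group. The stromal ligand Cxcl12 was at 9.95, 9.98, 10.09 and 9.69 in probiotic colitis mice, against 9.44, 8.32, 9.51 and 9.07 in untreated colitis mice, and rose by 0.84 ± 0.18 (adjusted p = 0.0213). No mouse overlaps, and untreated colitis mouse 6 was well below the rest of its group.

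The macrophage ligand Ccl8 was at 8.76, 9.16, 9.15 and 8.05 in probiotic colitis mice, against 7.72, 6.68, 8.46 and 6.71 in untreated colitis mice, and rose by 1.39 ± 0.31 (adjusted p = 0.0240), or 2.62-fold. Untreated colitis mouse 7 was above probiotic colitis mouse 8. The gut-homing receptor Ccr9 was at 6.09, 5.90, 6.06 and 5.73 in probiotic colitis mice, against 5.64, 5.52, 5.53 and 5.63 in untreated colitis mice, and rose by 0.36 ± 0.08 (adjusted p = 0.0266). The fractalkine receptor Cx3cr1 was at 8.36, 8.51, 8.55 and 8.32 in probiotic colitis mice, against 8.05, 8.06, 8.01 and 8.20 in untreated colitis mice, and rose by 0.35 ± 0.08 (adjusted p = 0.0296). Neither receptor overlaps between these groups, and the steps are small. Ccl28 had the smallest p among negative changes (-0.27 ± 0.14, adjusted p = 0.330), and its values were 10.54, 10.38, 10.49 and 11.14 in probiotic colitis mice, against 10.58, 11.27, 10.78 and 11.02 in untreated colitis mice.

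The neutrophil and interferon ligands did not pass in this comparison. Cxcl5 had a change of 0.61 ± 0.47, adjusted p = 0.537, Cxcl9 of 1.41 ± 0.56, adjusted p = 0.181 and Cxcr2 of 0.97 ± 0.52, adjusted p = 0.344. For each of them probiotic colitis mice 3, 5 and 7 were close together and mouse 8 was far below, at 7.47 for Cxcl5, 8.80 for Cxcl9 and 6.71 for Cxcr2. Ackr4 had a change of 0.29 ± 0.12, adjusted p = 0.220, its values in probiotic colitis mice being 4.83, 4.90, 4.91 and 5.17. Of 11 monocyte and macrophage markers 9 rose, with mean levels of 8.80 to 9.45 in probiotic colitis and 7.84 to 8.96 in untreated colitis mice. Of 11 T and NK cell markers 4 rose, with mean levels of 7.16 to 7.64 in probiotic colitis and 6.25 to 7.54 in untreated colitis mice. The part of these cells in the Ccr2, Ccl8, Cx3cr1 and Cxcr6 results was not tested. Neutrophil markers passed in 0 of 12, at 6.60 to 9.01 in probiotic colitis and 6.50 to 9.30 in untreated colitis mice. Of the 37 receptor signalling genes 5 rose, among them the G protein subunit Gng2 (0.42 ± 0.08, adjusted p = 0.0155) and the regulator Rgs2 (0.52 ± 0.11, adjusted p = 0.0155).

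In cyclosporine colitis, against untreated colitis, 1 of the 51 tested members rose and 5 fell, where 7.58% of all tested genes rose and 5.58% fell. The comparison asks how DSS mice given cyclosporine in its own vehicle differed from DSS mice given saline. The median change was -0.33 over the tested members, 38 of them negative, and -0.01 over all genes. The groups did not overlap for 1 tested member higher and 6 lower under cyclosporine, where 8.11% and 6.86% of all genes did not. The count that fell was 2 without cyclosporine colitis mouse 4 or 9, 3 without untreated colitis mouse 5 or 10 or cyclosporine colitis mouse 7, and 17 without untreated colitis mouse 6. Without the 3 arrays that stand apart, 2 members rose and 21 fell. Cxcl5 and Ccl9 passed under every alternative tried, and Ackr4 under every one but the stricter filter, which leaves it untested.

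**Figure D5:**
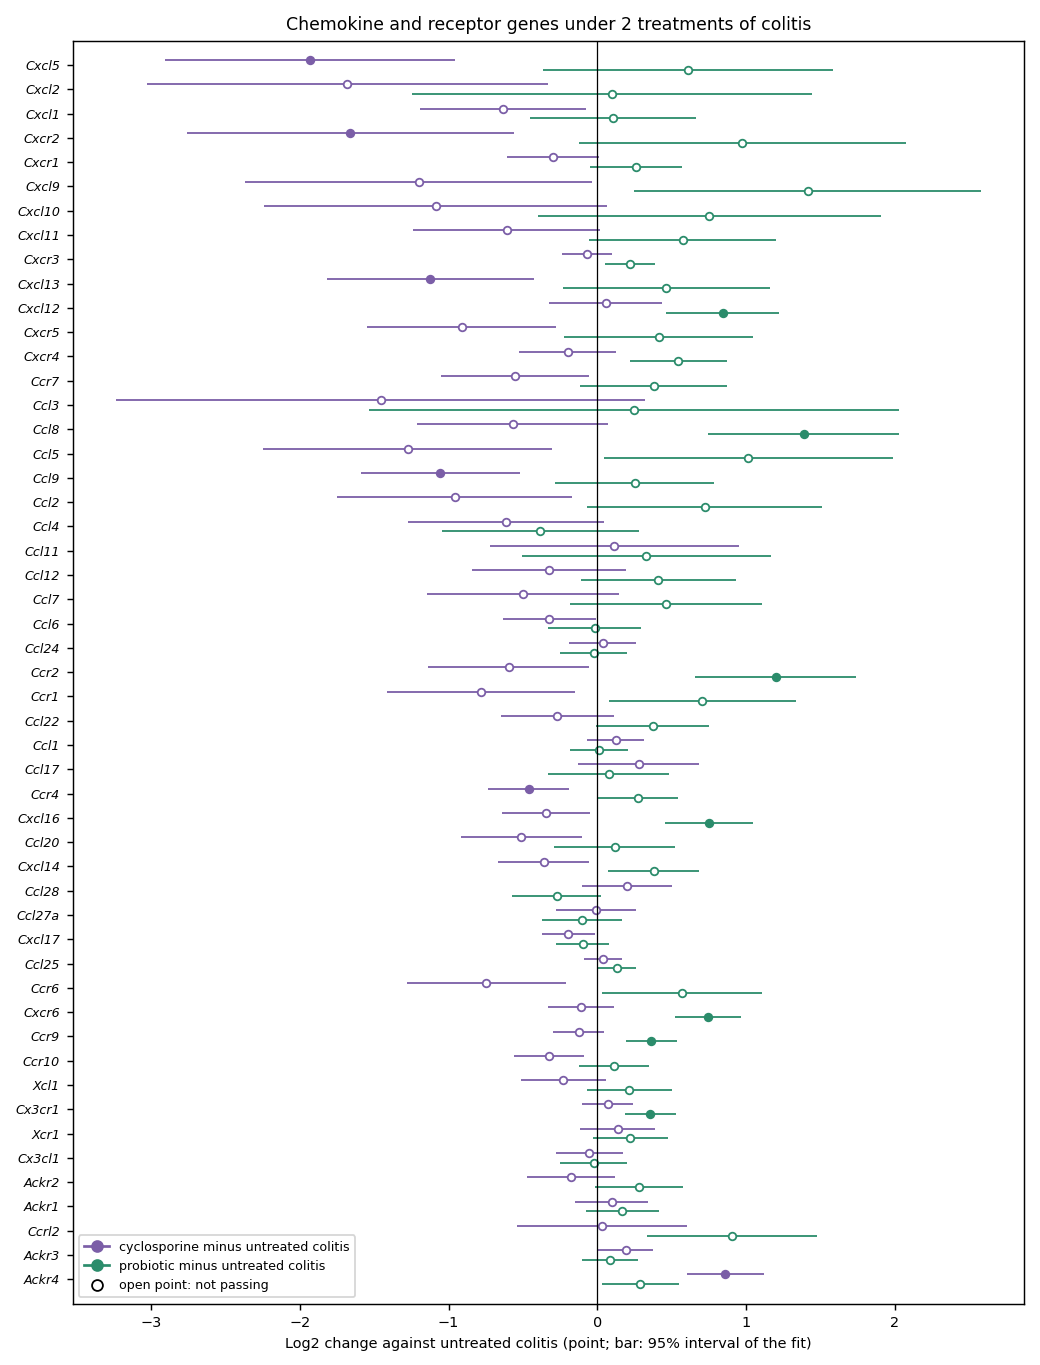
Log2 change of the 51 tested members against untreated colitis in cyclosporine colitis (purple) and probiotic colitis (green), points with the 95% interval of the fit as bars, filled where the adjusted p was under 0.05. Cyclosporine points lie left of 0 for 38 members and probiotic points right of 0 for 44; both sets share the untreated colitis mice.

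Ackr4, the scavenger of lymphoid chemokines, was at 5.61, 5.73, 5.26 and 5.48 in cyclosporine colitis mice, against 4.65, 4.58, 4.82 and 4.60 in untreated colitis mice, and rose by 0.86 ± 0.12 (adjusted p = 0.000262). No mouse overlaps, and the cyclosporine colitis mean of 5.52 ± 0.20 stands beside 5.48 ± 0.27 in untreated healthy mice (SD, n = 4 each). All untreated colitis values of Ackr4 are below the filter level. The gene passed that filter only through healthy and cyclosporine colitis mice, so this change is a description. Cxcl5, the neutrophil ligand, was at 6.34, 6.23, 6.45 and 7.71 in cyclosporine colitis mice, against 8.65, 7.71, 9.35 and 8.75 in untreated colitis mice, and fell by 1.93 ± 0.47 (adjusted p = 0.0105). Mouse 10 under cyclosporine was level with the lowest untreated colitis mouse at this rounding, and the other 3 were lower. Its receptor Cxcr2 was at 6.27, 5.80, 6.18 and 6.39 in cyclosporine colitis mice, against 7.64, 6.63, 9.37 and 7.65 in untreated colitis mice, and fell by 1.66 ± 0.52 (adjusted p = 0.0425). No cyclosporine colitis mouse reached the untreated colitis range.

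The myeloid ligand Ccl9 was at 8.32, 8.39, 7.69 and 8.36 in cyclosporine colitis mice, against 9.07, 8.95, 9.98 and 8.99 in untreated colitis mice, and fell by 1.06 ± 0.26 (adjusted p = 0.0106). The ranges do not meet. The B cell ligand Cxcl13 was at 10.35, 10.19, 9.79 and 11.40 in cyclosporine colitis mice, against 11.64, 11.04, 12.21 and 11.32 in untreated colitis mice, and fell by 1.12 ± 0.33 (adjusted p = 0.0313). Mouse 10 under cyclosporine was within the untreated range. The T cell receptor Ccr4 was at 5.03, 5.01, 5.01 and 5.45 in cyclosporine colitis mice, against 5.92, 5.36, 5.45 and 5.62 in untreated colitis mice, and fell by 0.46 ± 0.13 (adjusted p = 0.0240), with 3 of 4 cyclosporine values below the filter level. Again mouse 10 was the one that overlapped. Ccr4 passed that filter mainly through untreated and probiotic colitis mice, so this change is a description.

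Other inflammatory members did not pass under cyclosporine. Changes were -1.20 ± 0.56, adjusted p = 0.165 for Cxcl9, -1.28 ± 0.46, adjusted p = 0.0751 for Ccl5 and -0.75 ± 0.26, adjusted p = 0.0599 for Ccr6. For Ccl2, Ccr2 and Ccr1 they were -0.96 ± 0.38, -0.59 ± 0.26 and -0.78 ± 0.30. Of 12 neutrophil markers 3 fell, with mean levels of 6.07 to 6.27 in cyclosporine colitis and 6.50 to 9.30 in untreated colitis mice. Of 11 B and plasma cell markers 2 fell, at 7.04 to 8.52 in cyclosporine colitis and 7.70 to 9.37 in untreated colitis mice. The part of these cells in the Cxcl5, Cxcr2 and Cxcl13 results was not tested. Among the inducers, 4 of 8 fell: Tnf fell by 1.23 ± 0.24 (adjusted p = 0.00248), Il1b fell by 2.49 ± 0.71, Il1a fell by 2.36 ± 0.76 and Ltb fell by 1.08 ± 0.32. Of the 37 receptor signalling genes 1 rose, Gnai1 by 0.74 ± 0.12, and 13 fell, among them Arrb2 by 0.62 ± 0.14 (adjusted p = 0.00657).

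In cyclosporine colitis, against untreated healthy mice, 3 of the 51 tested members rose and 0 fell, where 2.64% of all tested genes rose and 3.38% fell. This comparison shares untreated healthy mice with that of untreated colitis. Over the tested members the median change was 0.15 and -0.03 over all genes. The groups did not overlap for 11 tested members higher and 0 lower under cyclosporine, where 6.55% and 8.19% of all genes did not. Cxcr6 was at 5.49, 5.82, 5.66 and 5.63 in cyclosporine colitis mice, against 5.08, 5.16, 5.36 and 5.23 in untreated healthy mice, and rose by 0.44 ± 0.11 (adjusted p = 0.0228). Cxcr4 was at 8.04, 7.89, 7.91 and 8.42 in cyclosporine colitis mice, against 7.72, 7.44, 7.43 and 7.35 in untreated healthy mice, and rose by 0.58 ± 0.16 (adjusted p = 0.0366). Ccl8 was at 7.19, 6.99, 6.44 and 6.68 in cyclosporine colitis mice, against 5.65, 5.54, 5.69 and 6.02 in untreated healthy mice, and rose by 1.10 ± 0.31 (adjusted p = 0.0407). For all 3 genes no cyclosporine colitis mouse was within the healthy range, which for Cxcr6 lies mostly below the filter level. Of 11 T and NK cell markers 2 rose, with mean levels of 6.30 to 6.62 in cyclosporine colitis and 6.00 to 6.13 in untreated healthy mice. Of 11 monocyte and macrophage markers 3 rose, at 7.96 to 8.46 in cyclosporine colitis and 7.71 to 7.83 in untreated healthy mice, and the part of these cells in the 3 rises was not tested. Cxcl9 was higher in each cyclosporine colitis mouse too, at 8.46, 8.25, 7.80 and 7.50, but did not pass (1.50 ± 0.56, adjusted p = 0.107). Cxcl17, a mucosal ligand, had the smallest p among negative changes (-0.23 ± 0.09, adjusted p = 0.110). Limma gave 10 members with an unadjusted p under 0.05 in either direction, a count not set here against the one over all genes. The count that rose was 1 without untreated healthy mouse 2, 4 or 6 or cyclosporine colitis mouse 4, 7 or 10, and 0 without untreated healthy mouse 7. Without the 3 arrays that stand apart it was 6.

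In cyclosporine colitis, against probiotic colitis, 2 of the 51 tested members rose and 33 fell, where 11.3% of all tested genes rose and 12% fell. The groups did not overlap for 1 tested member higher and 27 lower under cyclosporine, where 9.95% and 11.1% of all genes did not. Over the tested members the median change was -0.74, 44 of them negative, and 0.01 over all genes. This sets the treatments against each other within colitis, and each group was also set against untreated colitis above. The count that rose was 1 without probiotic colitis mouse 3, 5 or 7 or cyclosporine colitis mouse 4 or 7. Without the 3 arrays that stand apart, 2 members rose and 36 fell. Falls covered 17 of 31 ligands and 16 of 20 receptors.

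Cxcr6 was at 5.49, 5.82, 5.66 and 5.63 in cyclosporine colitis mice, against 6.53, 6.68, 6.52 and 6.27 in probiotic colitis mice, and fell by 0.85 ± 0.11 (adjusted p = 5.09e-05). Cxcl16 was at 8.76, 8.66, 8.46 and 8.64 in cyclosporine colitis mice, against 9.86, 9.97, 9.92 and 9.13 in probiotic colitis mice, and fell by 1.09 ± 0.14 (adjusted p = 7.02e-05). This ligand and receptor, which had the smallest p, stand apart between the treatments in every mouse. Ccr2 was at 7.22, 6.99, 6.93 and 6.85 in cyclosporine colitis mice, against 9.32, 8.95, 9.12 and 7.79 in probiotic colitis mice, and fell by 1.79 ± 0.26 (adjusted p = 0.000149). Ccr1 was at 6.46, 6.24, 6.38 and 6.55 in cyclosporine colitis mice, against 8.45, 7.95, 8.41 and 6.78 in probiotic colitis mice, and fell by 1.49 ± 0.30 (adjusted p = 0.00164). Probiotic colitis mouse 8 was nearest to the cyclosporine mice for both monocyte receptors. Ccl8 was at 7.19, 6.99, 6.44 and 6.68 in cyclosporine colitis mice, against 8.76, 9.16, 9.15 and 8.05 in probiotic colitis mice, and fell by 1.96 ± 0.31 (adjusted p = 0.000263). Ccl9 was at 8.32, 8.39, 7.69 and 8.36 in cyclosporine colitis mice, against 9.58, 9.76, 10.02 and 8.64 in probiotic colitis mice, and fell by 1.31 ± 0.26 (adjusted p = 0.00129). These macrophage and myeloid ligands did not overlap either.

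Ccr9 was at 5.59, 5.44, 5.26 and 5.54 in cyclosporine colitis mice, against 6.09, 5.90, 6.06 and 5.73 in probiotic colitis mice, and fell by 0.49 ± 0.08 (adjusted p = 0.000443). Ccr4 was at 5.03, 5.01, 5.01 and 5.45 in cyclosporine colitis mice, against 5.85, 6.16, 5.91 and 5.51 in probiotic colitis mice, and fell by 0.73 ± 0.13 (adjusted p = 0.000632). Ccr6 was at 6.25, 5.97, 6.38 and 7.25 in cyclosporine colitis mice, against 7.81, 8.12, 7.63 and 7.56 in probiotic colitis mice, and fell by 1.32 ± 0.26 (adjusted p = 0.00125). All 3 lymphocyte receptors were lower in each cyclosporine colitis mouse, mouse 10 being nearest for Ccr4 and Ccr6. For Ccr4 every cyclosporine value but that of mouse 10 is below the filter level. The gene passed that filter mainly through untreated and probiotic colitis mice, so its change is a description. Cxcl5 was at 6.34, 6.23, 6.45 and 7.71 in cyclosporine colitis mice, against 9.82, 9.91, 9.70 and 7.47 in probiotic colitis mice, and fell by 2.54 ± 0.47 (adjusted p = 0.000823). Cxcr2 was at 6.27, 5.80, 6.18 and 6.39 in cyclosporine colitis mice, against 9.52, 9.22, 9.73 and 6.71 in probiotic colitis mice, and fell by 2.63 ± 0.52 (adjusted p = 0.00145). Cyclosporine mouse 10 was above probiotic mouse 8 for Cxcl5, while Cxcr2 did not overlap. Cxcl14, an epithelial and stromal ligand, was at 8.03, 8.12, 7.88 and 8.23 in cyclosporine colitis mice, against 8.91, 8.87, 9.11 and 8.34 in probiotic colitis mice, and fell by 0.74 ± 0.15 (adjusted p = 0.00137).

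Ackr4 and Ccl28 were the members that rose. Ackr4 was at 5.61, 5.73, 5.26 and 5.48 in cyclosporine colitis mice, against 4.83, 4.90, 4.91 and 5.17 in probiotic colitis mice, and rose by 0.57 ± 0.12 (adjusted p = 0.00267). No overlap was seen between the groups. All probiotic colitis values of Ackr4 are below the filter level, which it passed only through healthy and cyclosporine colitis mice, so this change is a description. Ccl28, the epithelial ligand of Ccr10, was at 11.25, 11.16, 11.08 and 10.95 in cyclosporine colitis mice, against 10.54, 10.38, 10.49 and 11.14 in probiotic colitis mice, and rose by 0.47 ± 0.14 (adjusted p = 0.0230). Probiotic mouse 8 was within the cyclosporine range and the other 3 were below it. In this comparison 11 of 12 neutrophil markers, 11 of 11 B and plasma cell markers, 10 of 11 T and NK cell markers and 8 of 11 monocyte and macrophage markers fell. Neutrophil marker means were 6.07 to 6.27 in cyclosporine colitis and 6.60 to 9.01 in probiotic colitis mice. For B and plasma cells they were 7.04 to 8.52 in cyclosporine colitis and 8.87 to 9.18 in probiotic colitis mice. For T and NK cells they were 6.30 to 6.62 in cyclosporine colitis and 7.16 to 7.64 in probiotic colitis mice, and for monocytes and macrophages 7.96 to 8.46 in cyclosporine colitis and 8.80 to 9.45 in probiotic colitis mice. The part of these cells in the 33 falls was not tested.

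In probiotic colitis, against probiotic healthy mice, 31 of the 51 tested members rose and 4 fell, where 13.6% of all tested genes rose and 16.1% fell. Without the 3 arrays that stand apart, 35 members rose and 5 fell. The groups did not overlap for 27 tested members higher and 3 lower in colitis, where 13.8% and 17.3% of all genes did not. Over the tested members the median change was 0.70 and -0.04 over all genes. This is the colitis comparison within mice that took the strains, and its probiotic colitis values are those given above. Cxcr6 rose by 1.07 ± 0.11 (adjusted p = 1.39e-06) over 5.54, 5.39, 5.30 and 5.50 in probiotic healthy mice. Cxcl16 rose by 1.30 ± 0.14 (adjusted p = 3.15e-06) over 8.41, 8.36, 8.36 and 8.52 in probiotic healthy mice. For this pair no probiotic colitis mouse was within the healthy range. Ccr2 rose by 2.22 ± 0.26 (adjusted p = 5.83e-06) over 6.68, 6.62, 6.62 and 6.39 in probiotic healthy mice, and Ccr1 rose by 2.01 ± 0.30 (adjusted p = 5.57e-05) over 6.00, 5.79, 5.95 and 5.80. Ccl8 rose by 2.62 ± 0.31 (adjusted p = 6.07e-06) over 6.08, 6.20, 6.25 and 6.12 in probiotic healthy mice. Each of these monocyte and macrophage members was higher in every colitis mouse, mouse 8 being the lowest. Of 11 monocyte and macrophage markers 9 rose, with mean levels of 8.80 to 9.45 in probiotic colitis and 7.92 to 8.24 in probiotic healthy mice. Cxcl9 rose by 3.64 ± 0.56 (adjusted p = 6.98e-05), or 12.4-fold, with 11.33, 11.18, 11.17 and 8.80 in probiotic colitis mice, against 7.66, 7.04, 6.39 and 6.83 in probiotic healthy mice. There is no overlap, and this is the highest log2 change of the comparison.

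Ccr6 rose by 2.01 ± 0.26 (adjusted p = 1.31e-05) over 5.84, 5.80, 5.65 and 5.77 in probiotic healthy mice, and Ccr9 rose by 0.54 ± 0.08 (adjusted p = 6.62e-05) over 5.47, 5.35, 5.38 and 5.42. Cxcr4 rose by 1.13 ± 0.16 (adjusted p = 2.57e-05), with 8.92, 8.74, 8.93 and 8.63 in probiotic colitis mice, against 7.81, 7.65, 7.68 and 7.55 in probiotic healthy mice. None of the 3 receptors overlaps. Cxcl13 rose by 2.34 ± 0.33 (adjusted p = 3.43e-05), with 12.09, 12.01, 12.08 and 11.90 in probiotic colitis mice, against 10.64, 9.70, 8.94 and 9.45 in probiotic healthy mice. Probiotic healthy mouse 4 was the highest of its group and still below each colitis mouse. Cxcl5 rose by 2.75 ± 0.47 (adjusted p = 0.000185) over 7.03, 6.72, 6.24 and 5.93 in probiotic healthy mice, and Ccr4 rose by 0.70 ± 0.13 (adjusted p = 0.000428) over 5.14, 5.15, 5.25 and 5.12. Both stand apart in every mouse, but all 4 probiotic healthy values of Ccr4 are below the filter level of 5.30. Ccr4 passed that filter mainly through untreated and probiotic colitis mice, so its change is a description. Of 12 neutrophil markers 11 rose, with mean levels of 6.60 to 9.01 in probiotic colitis and 5.85 to 6.49 in probiotic healthy mice. All 11 T and NK cell markers tested rose, at 7.16 to 7.64 in probiotic colitis and 6.16 to 6.23 in probiotic healthy mice. All 11 tested B and plasma cell markers rose as well, at 8.87 to 9.18 in probiotic colitis and 6.65 to 7.38 in probiotic healthy mice. The part of these cells in the 31 rises was not tested.

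The members that fell were Ackr4, Ccl24, Ccl17 and Cx3cl1. Ackr4 fell by 0.48 ± 0.12 (adjusted p = 0.00571) under 5.47, 5.41, 5.23 and 5.62 in probiotic healthy mice. No colitis mouse overlaps, and the colitis values of Ackr4 and Ccl24 are below the filter level. Ackr4 passed that filter only through healthy and cyclosporine colitis mice, so its change is a description. Ccl24 fell by 0.35 ± 0.11 (adjusted p = 0.0189), with 4.80, 5.08, 5.17 and 5.21 in probiotic colitis mice, against 5.24, 5.39, 5.45 and 5.57 in probiotic healthy mice. It passed the filter mainly through healthy mice, so its change is a description too. Ccl17 fell by 0.54 ± 0.19 (adjusted p = 0.0444), with 5.39, 5.69, 5.21 and 5.67 in probiotic colitis mice, against 5.89, 6.03, 5.63 and 6.55 in probiotic healthy mice. Cx3cl1, fractalkine, fell by 0.29 ± 0.11 (adjusted p = 0.0498), with 8.47, 8.37, 8.49 and 8.37 in probiotic colitis mice, against 8.52, 8.86, 8.81 and 8.67 in probiotic healthy mice. Ccl17 overlaps and the other members do not. The count that fell was 2 without probiotic healthy mouse 5 or probiotic colitis mouse 7, and 1 without probiotic healthy mouse 7 or probiotic colitis mouse 3.

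In probiotic healthy, against untreated healthy mice, 0 of the 51 tested members rose and 0 fell, where 0% of all tested genes rose and 0% fell. Limma gave 5 members with an unadjusted p under 0.05, and 1511 of all 16739 genes. Over the tested members the median change was 0.08, 35 of them positive. Ackr1, an endothelial receptor, had the smallest p among positive changes, with 6.54, 6.47, 6.43 and 6.59 in probiotic healthy mice, against 5.93, 6.17, 6.14 and 6.28 in untreated healthy mice (0.38 ± 0.12, adjusted p = 0.391). Cxcr3 had the smallest p among negative changes (-0.17 ± 0.08, adjusted p = 0.556), with 6.44, 6.46, 6.55 and 6.36 in probiotic healthy mice, against 6.73, 6.70, 6.62 and 6.42 in untreated healthy mice. Ackr1 does not overlap between the groups and Cxcr3 does. The groups did not overlap for 5 tested members higher and 0 lower in probiotic healthy mice, where 4.10% and 2.98% of all genes did not. Among members that rose in probiotic colitis against probiotic healthy mice, Cxcl5 had a change of -0.12 ± 0.47, adjusted p = 0.969, and Ccl8 one of 0.43 ± 0.31, adjusted p = 0.718.

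The probiotic effect in colitis minus that in healthy mice was tested as an interaction. Here 0 of the 51 tested members rose and 0 fell, where 0% of all tested genes rose and 0% fell, and limma gave 7 members and 1446 of all genes an unadjusted p under 0.05. The median was 0.30 over the tested members and 0.00 over all genes. Cxcr6 had the smallest p, its probiotic effect being 0.74 in colitis and 0.22 in healthy mice, a difference of 0.52 ± 0.15, adjusted p = 0.379. Ccl28 had the smallest p among negative differences, -0.36 ± 0.20, adjusted p = 0.651. Without probiotic colitis mouse 8, 1 member passed as higher, and without the 3 arrays that stand apart 2 did. In the fit of all arrays no difference in the probiotic effect between colitis and healthy mice was detected for a tested member.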

How the data were processed

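Total RNA of the middle colon of 20 mice was hybridised to Affymetrix arrays, 1 per mouse, and groups and animal numbers were taken from the sample titles. The deposited values are log2 expression per probe set and were used as they are. They were normalised with RMA per the submitters' processing notes, and its version was not given in the sources used here. Of 41801 probe sets 29195 had values, and of these 22360 carried 1 gene symbol, 1013 several and 5822 none. Probe sets above 5.30, the 25th percentile, on at least 4 arrays were kept, and a gene with several was represented by the brightest on average, which gave 16739 genes. Group means were fitted over all arrays in R 4.3.3 with limma 3.58.1 (lmFit, then eBayes with 4.03 prior beside 15 residual degrees of freedom). From it 8 comparisons were read, each with a Benjamini-Hochberg adjusted p under 0.05 over all genes. The number of arrays limits the precision. The fit was tested on simulated data in which each gene had the same spread in every group and mice varied independently. That setting leaves out the unequal spread of the groups here, so it cannot judge its effect on the calls.

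The members and lists were chosen with earlier results of these data known. Members named in a comparison were the passing ones with the smallest p, up to 12 in each direction, or the one with the smallest p where none passed. Promoters come from the RefSeq table of GRCm38.p6. The filter was dropped or raised to the 50th percentile (6.60), arrays were quantile-normalised again, centred on their median or weighted, and eBayes was run with trend and robust. Probe sets of a gene were averaged, animal number was taken as a block, the compared groups were fitted alone, and the 3 arrays that stand apart, or each array in turn, were left out.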

Additional observations from a re-analysis of the deposited data

Results flagged for a closer look

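In 10 of 130 groups of 4 mice, over the 26 members named for their p-values, the highest or lowest mouse lay far from the other 3 by Dixon's criterion at the 95% level, which chance alone meets in about 1 of 20 groups. Probiotic colitis mouse 8 lay below the others of its group for 4 members. It was at 7.47 for Cxcl5, the others lying between 9.70 and 9.92, and at 8.80 for Cxcl9, the others lying between 11.17 and 11.33. For Cxcr2 it was at 6.71, against 9.22 to 9.73 in the others, and for Cxcl16 at 9.13, against 9.86 to 9.97. Cyclosporine colitis mouse 10 lay above its group for Cxcl5, at 7.71 with the others between 6.23 and 6.45, and for Ccr4, at 5.45 with the others between 5.01 and 5.03. Ccl9 was at 7.69 in cyclosporine colitis mouse 9, below the others at 8.32 to 8.39, and at 9.98 in untreated colitis mouse 7, above the others at 8.95 to 9.07. Ccl28 was at 11.13 in probiotic healthy mouse 4, above the others at 10.86 to 10.91. Cxcl12 was at 8.57 in untreated healthy mouse 2, below the others at 9.03 to 9.06.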

How the results depend on the processing

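Of 60 named calls 42 passed under every alternative that tested the gene, 18 lost their call under at least one and 0 reversed. Of the 42, 11 concern dim genes (Ackr4, Cxcr6, Ccr4 and Ccr9) that the stricter filter leaves untested. Among all member calls, counted likewise, 13 of 26 passed throughout in untreated colitis against untreated healthy, 0 of 7 in probiotic against untreated colitis, 3 of 6 in cyclosporine against untreated colitis, 28 of 35 in probiotic colitis against probiotic healthy, 0 of 3 in cyclosporine colitis against untreated healthy and 17 of 35 in cyclosporine against probiotic colitis. In untreated colitis against untreated healthy the count that fell, 2, was 0 under the stricter filter, which drops dim genes, and 1 without a filter, with quantile normalization again, median centring, trend and robust, array weights, the replicate block or without the 3 arrays that stand apart. In probiotic against untreated colitis the count that rose, 7, was 14 with array weights, 11 without the 3 arrays and 0 in the compared groups alone, and the count that fell, 0, was 1 with array weights. In cyclosporine against untreated colitis the count that rose, 1, was 0 under the stricter filter and 2 without the 3 arrays, and the count that fell, 5, was 11 with array weights, 21 without the 3 arrays and 3 in the compared groups alone. In probiotic colitis against probiotic healthy the count that fell, 4, was 2 without a filter or with the replicate block and 1 under the stricter filter. In cyclosporine colitis against untreated healthy the count that rose, 3, was 0 with the replicate block and 6 without the 3 arrays or in the compared groups alone. In cyclosporine against probiotic colitis the count that rose, 2, was 1 under the stricter filter or in the compared groups alone. For the interaction 2 members rose without the 3 arrays. Counts over all genes moved with the setting as well. In probiotic against untreated colitis 356 genes rose in the fit of all arrays, 1063 with array weights and 458 without the 3 arrays. Moves of the member counts are therefore not read as particular to the members. Outside this comparison and that of untreated colitis against untreated healthy, all-gene counts by setting are not given here. Beyond what these settings leave out by construction, the cause was not tested. Leaving out each array in turn gave 15 to 30 rises and 1 to 2 falls in untreated colitis against untreated healthy, 1 to 16 and 0 to 1 in probiotic against untreated colitis, 1 to 1 and 2 to 17 in cyclosporine against untreated colitis, 28 to 34 and 1 to 4 in probiotic colitis against probiotic healthy. The ranges were 0 to 3 and 0 to 0 in cyclosporine colitis against untreated healthy, 1 to 2 and 23 to 35 in cyclosporine against probiotic colitis, 0 to 0 and 0 to 0 in probiotic against untreated healthy, and 0 to 1 and 0 to 0 for the interaction. With animal number as a replicate block, 19 members rose in untreated colitis against untreated healthy, 5 in probiotic against untreated colitis and 6 fell in cyclosporine against untreated colitis. Same-numbered mice of different groups correlated from -0.185 to 0.433 in their deviations. Mice of different numbers were not compared in this way, so the range cannot show whether the numbers mark pairs. The main fit did not take them as pairs. Differences of dim members, such as Cxcl2, Ackr4, Ccl24 and Ccr4, are compressed by background.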
